A study of Mus musculus with 48 samples.

Results

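Chemokine receptors are G protein-coupled receptors that guide leukocytes along gradients of small secreted proteins, the chemokines. CCR7 takes T cells into lymph nodes and splenic T cell zones, CXCR5 takes them to B cell follicles, CXCR4 retains cells in the bone marrow, and CCR9 directs them to the small intestine. CCR2, CCR4, CCR6, CCR8 and CXCR3 are carried by activated or tissue-seeking T cells, and CCR4, CCR6 and CCR8 are well known on regulatory T cells (Tregs). The data below follow the transcripts of these 9 receptors, Ccr2, Ccr4, Ccr6, Ccr7, Ccr8, Ccr9, Cxcr3, Cxcr4 and Cxcr5, taken by gene symbol from the 53345 genes of the bulk RNA-seq matrices. All 9 symbols were found in both the count and the FPKM matrix, and all 9 passed the filter on low counts in every fit.

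The study asked how attenuated IL-2 muteins act on Tregs in vivo when contact of the T cell receptor with MHC class II is left intact or blocked. Female C57BL/6 mice aged 8 to 12 weeks were injected once under the skin with PBS or with 25 µg of a human IL-2 Fc fusion: wild-type IL-2 (WT IL-2), the single mutant H16R, or 3x, which carries D20A, V91K and M104V. Each mouse also received 2 intraperitoneal doses of 500 µg of an antibody, either an isotype control or an antibody that blocks MHC class II (MHC II block), and spleens were taken on day 4. Tregs were the CD25-positive fraction of a magnetic selection (32 libraries, 8 groups of 4 mice). Conventional T cells (Tcons) were its CD25-negative flow-through (16 libraries, 2 mice a group, each also giving a Treg library). No group is free of antibody. The Treg fraction was selected on CD25, a chain of the IL-2 receptor itself, and was not sorted for Foxp3, although a flow cytometry check described in the methods found most samples to be largely Foxp3-positive. In the isotype WT IL-2 group, 2 Treg libraries carry the same animal number in the labels and are called replicates 3a and 3b here.

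Libraries held 18279780 to 51238377 expected counts in Tregs and 31311437 to 51953840 in Tcons. The labelled cell type was visible in each library: Foxp3, the defining Treg factor, lay at 692 to 1179 CPM (a gene's expected counts scaled to a common library total) in Tregs and at 48.4 to 186 CPM in Tcons. Markers of other cells moved with some groups. The summed CPM of 10 B cell markers was 874 in isotype PBS Treg replicate 1 against 151 to 196 in the other 3 libraries of its group, and 772 in MHC II block WT IL-2 Treg replicate 1. In the remaining Treg libraries it ran from 35.2 to 187. The sum of 10 myeloid markers was 82.5 to 159.7 in MHC II block H16R Tregs and 86.3 to 123 in MHC II block 3x Tregs, against 29.7 to 38.7 and 25.5 to 32.5 in the matching isotype groups, and it reached 861 in MHC II block WT IL-2 Treg replicate 1. The sum of 6 NK cell markers was 74.5 to 217 CPM in the 12 MHC II block Treg libraries given IL-2 and 16.0 to 49.3 CPM in the other 20. In Tcons, isotype WT IL-2 replicate 2 stood apart with a Treg marker sum of 1357 CPM against 290.4 to 669.9 in the other 15. In bulk RNA, fewer cells of a type and less RNA per cell cannot be told apart.

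Of the 9 genes, 5 lie on mouse chromosome 9 (GRCm38), and Ccr9 and Ccr2 are the closest pair, 318 kb apart. Ccr2 spans chr9:124101950-124113557, Ccr4 chr9:114490316-114504916, Ccr8 chr9:120092114-120094906, Ccr9 chr9:123678439-123784330 and Cxcr5 chr9:44511787-44561877. Ccr6 lies at chr17:8236043-8257141, Ccr7 at chr11:99144196-99155077, Cxcr3 at chrX:101731535-101734269 and Cxcr4 at chr1:128588199-128592293. All are annotated as protein-coding. The Ccr9 interval contains Lztfl1 and the processed pseudogene Gm10052 on the other strand, and the end of Cxcr5 overlaps Bcl9l on the other strand. The library kit keeps strand, but whether the counting used it is not given in the sources used here, so reads of Ccr9 and Cxcr5 may include some from these neighbours.

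RefSeq promoter windows (GRCm38.p6, the 250 bases before an annotated start) were at hand for 7 of the 9 genes, 8 windows in all because Ccr6 has 2. 3 are shown, for a receptor whose transcript rose with each IL-2 molecule (Ccr4), one that fell with most (Ccr6) and one that fell with the muteins (Cxcr4). Each is written 5′ to 3′ on the strand of its gene, and capitals mark matches to the motifs named after them.
Ccr4, chr9:114496545-114496794, minus strand: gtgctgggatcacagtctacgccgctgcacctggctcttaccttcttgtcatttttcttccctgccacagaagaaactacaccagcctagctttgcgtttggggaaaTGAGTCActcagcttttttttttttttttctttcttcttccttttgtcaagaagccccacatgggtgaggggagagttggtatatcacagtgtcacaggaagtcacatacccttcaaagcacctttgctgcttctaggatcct
Ccr6, first window, chr17:8235793-8236042, plus strand: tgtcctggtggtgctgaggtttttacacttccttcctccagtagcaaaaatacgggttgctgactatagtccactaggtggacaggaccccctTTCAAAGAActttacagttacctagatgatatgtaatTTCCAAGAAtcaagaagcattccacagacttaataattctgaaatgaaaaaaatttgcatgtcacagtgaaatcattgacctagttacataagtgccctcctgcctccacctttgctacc
Cxcr4, chr1:128592300-128592549, minus strand: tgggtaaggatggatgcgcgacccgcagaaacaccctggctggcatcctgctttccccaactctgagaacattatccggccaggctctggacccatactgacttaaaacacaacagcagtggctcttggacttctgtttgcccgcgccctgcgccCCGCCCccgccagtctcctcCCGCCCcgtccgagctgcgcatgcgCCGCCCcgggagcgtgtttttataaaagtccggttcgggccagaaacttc
The 6 motifs searched, on both strands, began with the STAT motif, spelled TTCNNNGAA, and the AP-1 motif, spelled TGANTCA. The forkhead motif of Foxo factors was spelled TGTTTAC, and the Runx motif that was searched was spelled TGTGGTT. The GATA motif used here was spelled AGATAA, and the GC box, the letters bound by Sp1, was spelled GGGCGG. The Ccr4 window lies inside the wider Ccr4 interval given above, which starts further upstream. The capitals in Ccr4 are an AP-1 match, those in Ccr6 are 2 STAT matches and those in Cxcr4 are 3 GC boxes. Of all 32841 windows of this length, 7.02% held a STAT match, 6.75% an AP-1 match, 32.7% a GC box, 9.99% a GATA match, 4.4% a Runx match and 3.17% a Foxo match. GATA matches lay in the windows of Ccr2 and Ccr8 and in the second window of Ccr6, and the windows of Ccr9 and Cxcr3 held none of the 6. A match is a string of letters and does not show that a factor binds there.

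Per transcript length, Ccr7 was the most abundant of the 9 in Tregs, with a median of 132 FPKM over 32 libraries, followed by Cxcr4 (102), Cxcr3 (48.8), Ccr8 (46.2), Ccr2 (30.3), Ccr4 (26.1), Cxcr5 (16.6), Ccr6 (8.25) and Ccr9 (4.69). The ranges of neighbours in this order overlap. In Tcons the order began with Ccr7 (219 FPKM), Cxcr4 (62.9) and Cxcr3 (45.7) and ended with Ccr8 (4.81) and Ccr6 (2.16). Levels below are in CPM, computed from the expected counts and the total of each library, and are compared between libraries for 1 gene at a time. Values within a group are given in the order of the replicate numbers.

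IL-2 raised 4 receptors and lowered others in Tregs. Changes were tested with edgeR across 12392 genes, and a gene is called changed at a Benjamini-Hochberg adjusted p under 0.1. In isotype mice, 7 of 9 receptors changed after WT IL-2 against PBS (4 rose, 3 fell), 9 after H16R (4 rose, 5 fell) and 8 after 3x (3 rose, 5 fell). Of all genes tested, 52.2%, 64.2% and 63.6% were called in these comparisons. Under MHC II block, 6 receptors changed after WT IL-2 (4 rose, 2 fell), 9 after H16R (4 rose, 5 fell) and 8 after 3x (4 rose, 4 fell), where 35.6%, 66.5% and 73.0% of all genes were called. Ccr2, Ccr4 and Cxcr3 rose in all 6 comparisons and Ccr7 fell in all 6. The share of all genes that rose or fell in all 6 was not counted. The 3 comparisons of each arm share their PBS mice and are not independent.

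**Figure D1:**
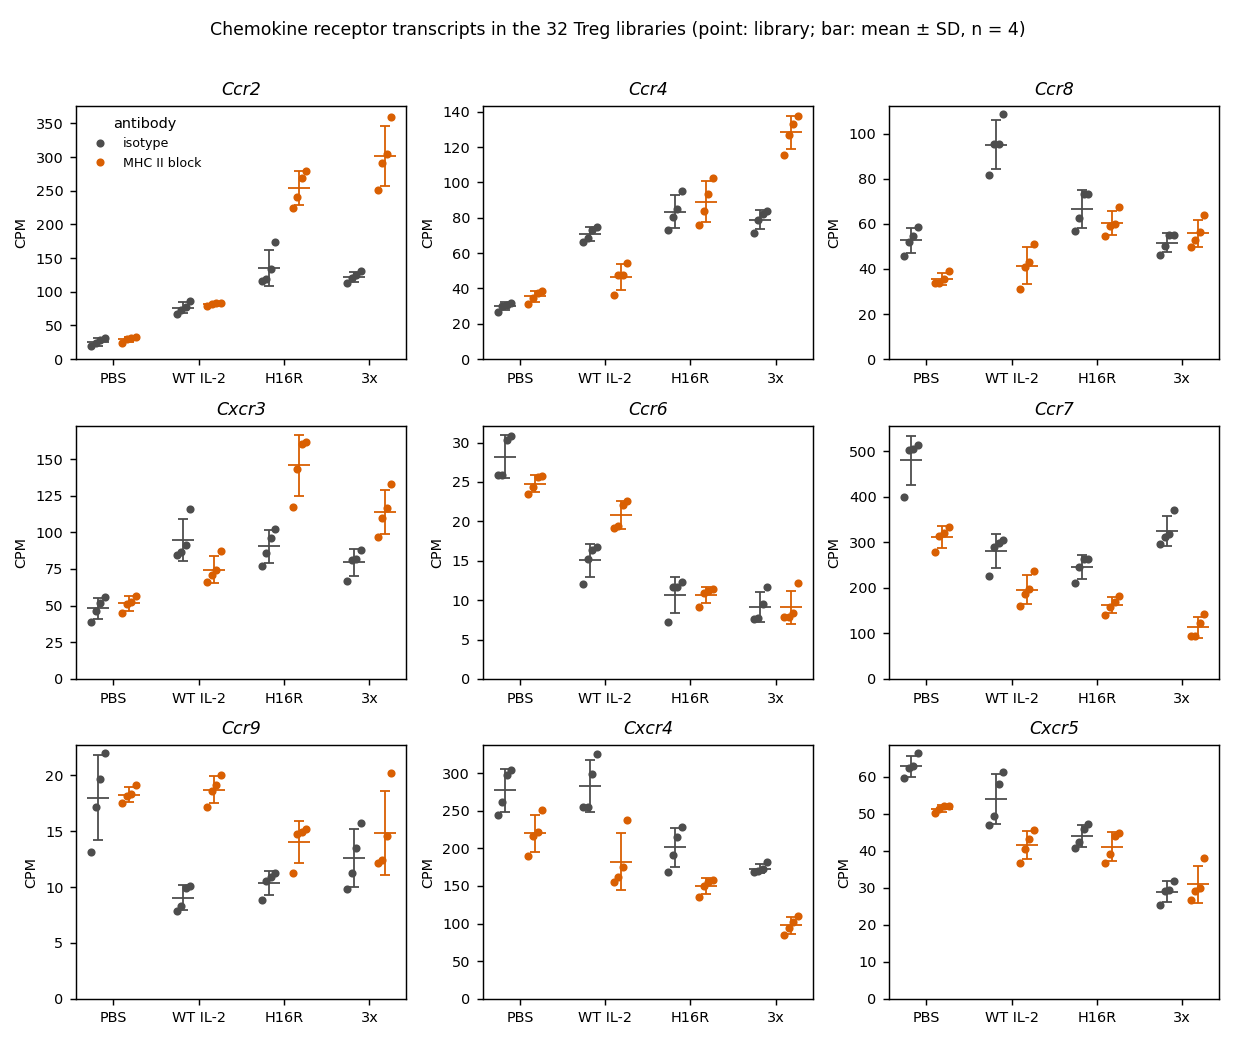
CPM (vertical axis, from 0) of each receptor in the 32 Treg libraries by injected molecule (horizontal axis) and antibody (colour). Points are libraries, and bars are the mean ± SD of 4. Ccr2 climbs from 18.9 to 31.2 CPM in isotype PBS Tregs to 251 to 359 CPM in MHC II block 3x Tregs, and Ccr7 runs the other way.

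Ccr2, the receptor for CCL2 and related chemokines that also marks inflammatory monocytes, had the largest change of the 9. Its levels in isotype Tregs were 18.9, 31.2, 23.5 and 29.2 CPM after PBS, 86.8, 67.7, 73.6 and 76.9 after WT IL-2, 133, 119.7, 173 and 116 after H16R and 119.8, 113, 131 and 125 after 3x. In MHC II block Tregs they were 32.8, 31.9, 29.6 and 23.7 after PBS, 78.7, 81.3, 82.9 and 82.7 after WT IL-2, 225, 240.3, 269 and 279.8 after H16R and 359, 251, 304 and 292 after 3x. No library of an IL-2 group overlapped its PBS group, and within each arm both mutein groups lay wholly above the WT IL-2 group. The rise against PBS in isotype Tregs was 3.08-fold after WT IL-2 (log2 fold change 1.62 ± 0.14 (SE), adjusted p = 3.20e-10), 5.60-fold after H16R (2.49 ± 0.14, adjusted p = 3.73e-14) and 5.01-fold after 3x (2.33 ± 0.14, adjusted p = 1.94e-13). Under MHC II block it was 2.85-fold after WT IL-2 (1.51 ± 0.13, adjusted p = 5.37e-09), 8.95-fold after H16R (3.16 ± 0.14, adjusted p = 5.69e-16) and 10.5-fold after 3x (3.39 ± 0.14, adjusted p = 5.24e-17). Under block the myeloid marker sum was also higher with IL-2 than after PBS (32.8 to 70.8 CPM), with 9 of the 9 myeloid markers tested higher after WT IL-2, 3 after H16R and 3 after 3x. In isotype Tregs 1 of the 9 rose and 8 fell after 3x, from a sum of 50.7 to 154 CPM after PBS to 25.5 to 32.5. The part of these cells in the Ccr2 values was not tested.

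Ccr4, the receptor for CCL17 and CCL22 on skin-homing and regulatory T cells, also rose with each molecule. In isotype Tregs it measured 26.7, 30.9, 32.0 and 30.1 CPM after PBS, 68.8, 73.1, 66.2 and 74.6 after WT IL-2, 85.1, 80.6, 95.2 and 73.0 after H16R and 84.0, 71.3, 82.0 and 78.6 after 3x, with no overlap between PBS and any IL-2 group, while the 3 IL-2 groups overlapped each other. With class II blocked it measured 38.5, 34.8, 37.2 and 31.4 after PBS, 36.4, 47.7, 54.6 and 47.5 after WT IL-2, 83.9, 76.0, 103 and 93.4 after H16R and 137, 115, 127 and 133 after 3x. Here the WT IL-2 group overlapped PBS, and every 3x library lay above every H16R library. The rise was 2.42-fold after WT IL-2 in isotype Tregs (log2 fold change 1.28 ± 0.10 (SE), adjusted p = 1.22e-10) but 1.36-fold under MHC II block (0.44 ± 0.10, adjusted p = 0.00166). With 3x it was 2.75-fold in isotype Tregs (1.46 ± 0.10, adjusted p = 4.21e-12) and 3.70-fold under block (1.89 ± 0.10, adjusted p = 4.77e-15), and after H16R 2.93-fold (1.55 ± 0.10, adjusted p = 1.01e-12) and 2.61-fold (1.39 ± 0.10, adjusted p = 5.24e-12).

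Cxcr3, the receptor for the interferon-induced chemokines CXCL9 and CXCL10, rose with every molecule in both arms. Its range was 38.5 to 55.7 CPM in isotype PBS Tregs, 84.6 to 116 after WT IL-2, 76.8 to 102 after H16R and 66.7 to 88.1 after 3x. The ranges under block were 45.3 to 56.9 after PBS, 66.1 to 86.9 after WT IL-2, 117 to 162 after H16R and 96.8 to 133 after 3x. In both arms each IL-2 group lay above PBS without overlap. The log2 fold changes in isotype Tregs were 1.00 ± 0.13 (adjusted p = 4.95e-07) after WT IL-2, 0.97 ± 0.13 (adjusted p = 3.69e-07) after H16R and 0.78 ± 0.13 (adjusted p = 1.11e-05) after 3x. Under block they were 0.58 ± 0.13 (adjusted p = 0.0012) after WT IL-2, 1.56 ± 0.13 (adjusted p = 6.07e-11) after H16R, the highest, and 1.18 ± 0.13 (adjusted p = 4.78e-09) after 3x (edgeR).

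Ccr8, the receptor for CCL1 and a marker of activated Tregs, was highest after WT IL-2 in isotype mice. Its levels there were 51.8, 45.6, 58.6 and 54.5 CPM after PBS, 81.5, 95.4, 108 and 95.2 after WT IL-2, 73.3, 73.4, 56.8 and 62.7 after H16R and 50.0, 55.0, 55.1 and 46.3 after 3x. All WT IL-2 libraries exceeded all others of the arm, and the H16R and 3x libraries overlapped PBS. The log2 fold change against PBS was 0.89 ± 0.11 (adjusted p = 3.50e-07) after WT IL-2, 0.40 ± 0.11 (adjusted p = 0.0032) after H16R and 0.03 ± 0.11 (adjusted p = 0.849) after 3x (95% interval -0.20 to 0.26). In the same fit 4 of 4 T cell and 4 of 4 Treg markers rose after WT IL-2 (median log2 changes 0.57 and 0.48), after H16R (0.59 and 0.54) and after 3x (0.44 and 0.62), where Ccr8 was not called. After each molecule 9 of 9 B cell markers fell, and their part in the Ccr8 values was not tested. Levels of Ccr8 under block were 33.6, 33.9, 39.2 and 35.5 after PBS, 30.9, 51.1, 41.0 and 42.9 after WT IL-2, 59.3, 54.5, 67.3 and 59.9 after H16R and 64.0, 52.9, 56.3 and 49.9 after 3x, and the order of the molecules changed. Both mutein groups then lay above PBS without overlap (0.82 ± 0.11, adjusted p = 6.42e-07 for H16R and 0.68 ± 0.11, adjusted p = 6.34e-06 for 3x). WT IL-2 gave 0.27 ± 0.11 (adjusted p = 0.0757), a call that was lost without MHC II block PBS replicate 1, MHC II block PBS replicate 2, MHC II block PBS replicate 4, MHC II block WT IL-2 replicate 2 or MHC II block WT IL-2 replicate 4 (0.15 to 0.27, adjusted p = 0.127 to 0.342) and under 7 of the 13 other settings (scaling, filter, model or threshold).

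**Figure D2:**
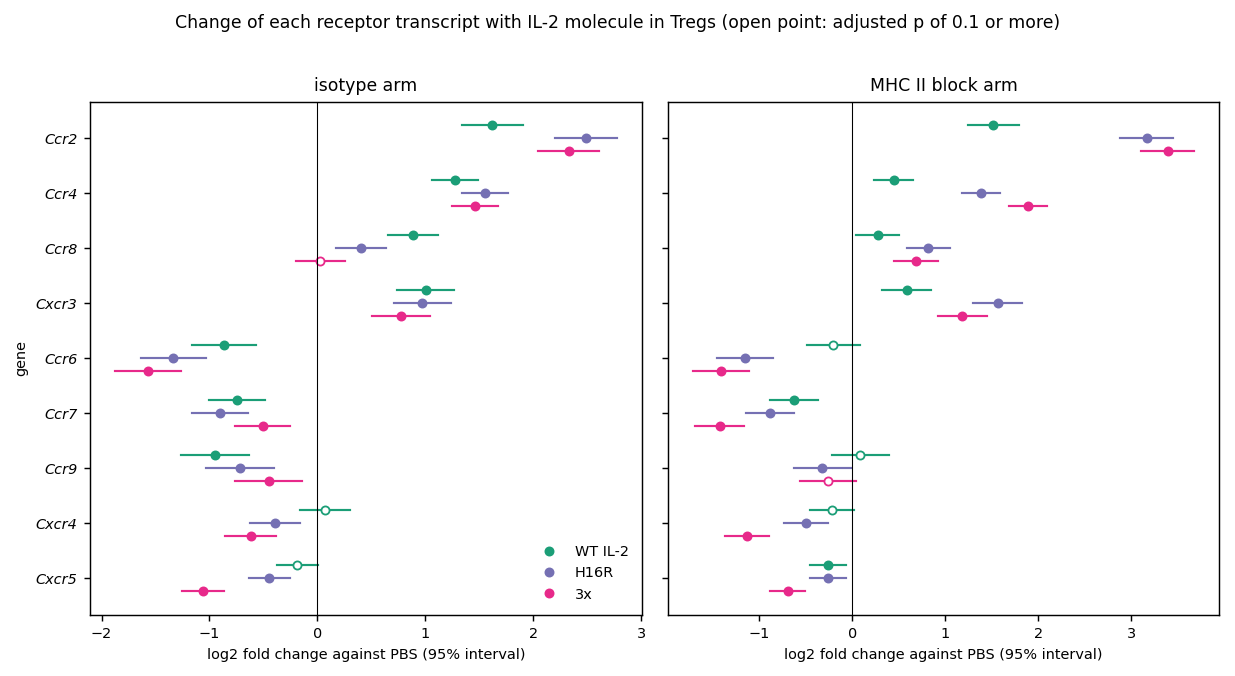
Log2 fold change of each receptor against PBS (horizontal axis, with 95% interval) for WT IL-2, H16R and 3x (colours) in isotype and MHC II block Tregs (panels), from edgeR. Ccr2, Ccr4 and Cxcr3 lie right of 0 in all 6 comparisons, and Ccr7 and Cxcr5 lie left of 0 in all 6, although Cxcr5 missed the threshold after WT IL-2 in isotype Tregs.

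Among the receptors that fell, Ccr6, the receptor for CCL20 found on Th17 cells and on some Tregs, fell furthest with the muteins in isotype Tregs. Its levels in isotype Tregs were 25.9, 30.8, 25.9 and 30.4 CPM after PBS, 12.1, 15.2, 16.3 and 16.7 after WT IL-2, 11.7, 12.2, 7.29 and 11.6 after H16R and 7.64, 11.7, 9.54 and 7.70 after 3x. In MHC II block Tregs they were 23.4, 25.7, 24.4 and 25.6 after PBS, 22.6, 19.4, 19.1 and 22.1 after WT IL-2, 10.9, 11.2, 11.4 and 9.16 after H16R and 7.89, 12.2, 7.90 and 8.35 after 3x. Each IL-2 group lay below the PBS group of its arm. In isotype Tregs the fall was 1.82-fold after WT IL-2 (log2 fold change -0.87 ± 0.14 (SE), adjusted p = 1.85e-05), 2.52-fold after H16R (-1.34 ± 0.15, adjusted p = 1.20e-08) and 2.97-fold after 3x (-1.57 ± 0.15, adjusted p = 8.43e-10). Under block it was 2.23-fold after H16R (-1.16 ± 0.15, adjusted p = 1.27e-07) and 2.66-fold after 3x (-1.41 ± 0.15, adjusted p = 2.05e-09), whereas WT IL-2 did not pass the test (-0.21 ± 0.14, adjusted p = 0.29, 95% interval -0.49 to 0.08) and was called under 2 of the 13 other settings (adjusted p from 0.0535).

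Ccr7 was lowered by IL-2 in both arms and by MHC II block under every injection. It measured 504, 399, 503 and 513 CPM in isotype PBS Tregs, 299, 289.8, 306 and 226 after WT IL-2, 264, 245, 209.9 and 263 after H16R and 311, 319, 297 and 371 after 3x. Under MHC II block it measured 314, 320.1, 278 and 333 after PBS, 187, 237, 197 and 159.9 after WT IL-2, 169, 181, 141 and 157 after H16R and 93.3, 142, 124 and 93.5 after 3x. PBS libraries were the highest of each arm without overlap, and the lowest values were in 3x Tregs under block. The log2 fold changes against PBS were -0.74 ± 0.13 (adjusted p = 2.62e-05) for WT IL-2, -0.90 ± 0.13 (adjusted p = 7.91e-07) for H16R and -0.51 ± 0.13 (adjusted p = 0.0011) for 3x in isotype Tregs. They were -0.63 ± 0.13 (adjusted p = 5.53e-04), -0.88 ± 0.13 (adjusted p = 1.05e-06) and -1.43 ± 0.13 (adjusted p = 1.46e-10) in the same order under block, the last a 2.69-fold fall (edgeR).

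Cxcr4, the receptor for CXCL12, and Cxcr5, the receptor for CXCL13, fell most after 3x. Cxcr4 ranged over 244 to 304 CPM after PBS, 255 to 325 after WT IL-2, 169 to 229 after H16R and 168 to 182 after 3x in isotype Tregs, and 190.0 to 251, 155 to 237, 135 to 158 and 84.3 to 110.4 in that order under block. WT IL-2 overlapped PBS in both arms (0.07 ± 0.11, adjusted p = 0.653 and -0.22 ± 0.11, adjusted p = 0.149 on the log2 scale), and the muteins lay below PBS in both. Under block the WT IL-2 change was called without MHC II block PBS replicate 1 or MHC II block WT IL-2 replicate 2 (-0.38 to -0.28, adjusted p = 0.00812 to 0.0875) and under 3 of the 13 other settings (adjusted p from 0.0628). The change was -0.40 ± 0.11 (adjusted p = 0.00396) for H16R and -0.62 ± 0.11 (adjusted p = 3.93e-05) for 3x in isotype Tregs, and -0.50 ± 0.11 (adjusted p = 4.75e-04) and -1.14 ± 0.12 (adjusted p = 1.39e-09) under block (edgeR).

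Cxcr5 ranged over 59.5 to 66.4 CPM after PBS, 47.0 to 61.3 after WT IL-2, 40.8 to 47.2 after H16R and 25.2 to 31.9 after 3x in isotype Tregs, and 50.2 to 52.1, 36.8 to 45.6, 36.6 to 44.9 and 26.6 to 38.1 under block. The 3x libraries of the isotype arm lay below all others of that arm. The log2 fold change after 3x was -1.06 ± 0.09 (adjusted p = 3.07e-10) in isotype Tregs and -0.70 ± 0.09 (adjusted p = 2.17e-07) under block, and after H16R -0.45 ± 0.09 (adjusted p = 1.76e-04) and -0.26 ± 0.09 (adjusted p = 0.0166), all from edgeR. With WT IL-2 it was -0.19 ± 0.09 (adjusted p = 0.101) in isotype Tregs, where a call was gained in 8 of the 32 fits that each leave out 1 library and under 4 of the 13 other settings (adjusted p from 0.0457), and -0.26 ± 0.09 (adjusted p = 0.0343) under block, where the call was lost without MHC II block WT IL-2 replicate 4 (-0.21, adjusted p = 0.122). Mature B cells also carry Cxcr5, Ccr6 and Ccr7, and the B cell marker sum was 151 to 874 CPM in isotype PBS Tregs against 35.2 to 48.1 in isotype 3x Tregs. Without the 2 libraries highest in these markers the changes after 3x in isotype Tregs were -1.03 for Cxcr5, -1.61 for Ccr6 and -0.48 for Ccr7, all still called. Of these libraries only isotype PBS replicate 1 is in this comparison. The isotype PBS libraries that remain still held 151 to 196 CPM of B cell markers, and the part of B cells in these values was not tested.

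Ccr9, the receptor for CCL25, was the least abundant of the 9 in Tregs by FPKM. In isotype mice it ranged over 13.2 to 22.0 CPM after PBS, 7.90 to 10.1 after WT IL-2, 8.80 to 11.3 after H16R and 9.84 to 15.7 after 3x, and it fell with all 3 molecules (-0.95 ± 0.15, adjusted p = 1.55e-05, -0.72 ± 0.15, adjusted p = 2.42e-04 and -0.45 ± 0.15, adjusted p = 0.0128, edgeR). Under MHC II block the ranges were 17.5 to 19.2, 17.2 to 20.0, 11.2 to 15.2 and 12.1 to 20.2. There WT IL-2 and 3x did not pass the test (0.08 ± 0.15, adjusted p = 0.711 and -0.26 ± 0.15, adjusted p = 0.12). H16R did (-0.32 ± 0.15, adjusted p = 0.065), a call lost without MHC II block PBS replicate 1, MHC II block PBS replicate 3, MHC II block PBS replicate 4 or MHC II block H16R replicate 3 (-0.32 to -0.23, adjusted p = 0.107 to 0.222) and under 4 of the 13 other settings. The 3x change was called without isotype PBS replicate 1 or MHC II block 3x replicate 4 (-0.44 to -0.26, adjusted p = 0.00942 to 0.0911) and under 5 of the 13 other settings (adjusted p from 0.0781). The 3x libraries overlapped PBS in both arms. In isotype Tregs, 6, 8 and 8 of 8 dendritic cell markers fell after WT IL-2, H16R and 3x, as did 9 of 9 B cell markers each time, and their part in the Ccr9 values was not tested.

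The 3 molecules were next set against each other at the same dose and day. In isotype Tregs 6 of 9 receptors differed between H16R and WT IL-2, 6 between 3x and WT IL-2 and 3 between 3x and H16R, with 18.6%, 34.7% and 11.5% of all genes called. The counts under block were 8, 9 and 5, with 57.5%, 68.7% and 25.2% of all genes. Relative to WT IL-2 in isotype Tregs, Ccr2 was higher after H16R (0.87 ± 0.13, adjusted p = 1.67e-04) and after 3x (0.70 ± 0.13, adjusted p = 1.61e-04), whereas Ccr8 was lower after H16R (-0.48 ± 0.11, adjusted p = 0.00477) and after 3x (-0.86 ± 0.11, adjusted p = 2.73e-06), as was Cxcr4 (-0.46 ± 0.11, adjusted p = 0.00858 and -0.69 ± 0.11, adjusted p = 6.15e-05, edgeR). Under block Ccr8 was instead higher with the muteins than after WT IL-2 (0.55 ± 0.11, adjusted p = 2.93e-04 for H16R and 0.41 ± 0.11, adjusted p = 0.00246 for 3x), and Ccr4 was higher by 0.94 ± 0.10 and 1.45 ± 0.10. In these comparisons 3 of 4 Treg markers were higher each time (medians 0.42 and 0.47), as were 4 and 3 of 4 T cell markers. In both, 9 of 9 B cell and 8 of 9 myeloid markers were lower. The part of these shifts in the Ccr8 and Ccr4 values was not tested. In isotype Tregs H16R and WT IL-2 also differed in Ccr6 (-0.47 ± 0.15, adjusted p = 0.0332), Ccr4 (0.28 ± 0.10, adjusted p = 0.0606) and Cxcr5 (-0.26 ± 0.09, adjusted p = 0.0628), but the groups overlapped. The Ccr6 call was lost without isotype WT IL-2 replicate 3b or isotype H16R replicate 3 (-0.42 to -0.32, adjusted p = 0.101 to 0.194), the Ccr4 call without isotype WT IL-2 replicate 1, isotype WT IL-2 replicate 3a, isotype H16R replicate 1 or isotype H16R replicate 3 (0.20 to 0.27, adjusted p = 0.104 to 0.294) and under 4 of the 13 other settings, and the Cxcr5 call without isotype WT IL-2 replicate 2, isotype WT IL-2 replicate 3b, isotype H16R replicate 2 or isotype H16R replicate 3 (-0.24 to -0.19, adjusted p = 0.124 to 0.246) and under 2 of the 13 other settings. Without isotype H16R replicate 3 the count of 6 fell to 3.

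Under block, H16R also gave more Ccr2 (1.65 ± 0.13, adjusted p = 3.40e-10) and Cxcr3 (0.98 ± 0.13, adjusted p = 9.05e-07) and less Ccr6 (-0.95 ± 0.15, adjusted p = 9.12e-06) than WT IL-2. The smaller differences in Ccr9 (-0.41 ± 0.15, adjusted p = 0.026), Cxcr4 (-0.28 ± 0.11, adjusted p = 0.0446) and Ccr7 (-0.26 ± 0.13, adjusted p = 0.0895) were each lost without some libraries: Ccr9 without MHC II block H16R replicate 3 (-0.31, adjusted p = 0.108), Cxcr4 without MHC II block WT IL-2 replicate 2 or MHC II block H16R replicate 2 (-0.23 to -0.12, adjusted p = 0.115 to 0.339) and under 3 of the 13 other settings, and Ccr7 in 14 of the 32 fits that each leave out 1 library (-0.28 to -0.15, adjusted p up to 0.348), the smallest value being without MHC II block WT IL-2 replicate 2, and under 4 of the 13 other settings. With 3x, all 9 differed from WT IL-2 under block, from Ccr2 (1.88 ± 0.13, adjusted p = 4.54e-12), Ccr4 (1.45 ± 0.10, adjusted p = 4.23e-12) and Cxcr3 (0.60 ± 0.13, adjusted p = 1.96e-04) at the top to Ccr6 (-1.21 ± 0.15, adjusted p = 8.70e-08), Cxcr4 (-0.91 ± 0.12, adjusted p = 1.64e-07) and Ccr7 (-0.80 ± 0.13, adjusted p = 5.75e-06) at the bottom (edgeR). The Ccr9 difference (-0.35 ± 0.15, adjusted p = 0.0436) was lost without MHC II block 3x replicate 1 or MHC II block 3x replicate 3 (-0.24 to -0.23, adjusted p = 0.19 to 0.214) and under 3 of the 13 other settings. In the comparisons of H16R and 3x with WT IL-2 under block, 7 and 8 of 8 dendritic cell markers were lower. B cell and myeloid markers were lower too (medians -1.79 and -3.18 for H16R, -1.75 and -3.52 for 3x). Of 6 NK markers 3 and 4 were lower and 1 was higher each time. The part of these cells in the differences under block was not tested. In isotype Tregs, 3x gave less Cxcr5 (-0.88 ± 0.09, adjusted p = 1.90e-07) and Ccr6 (-0.70 ± 0.15, adjusted p = 6.94e-04) and more Ccr9 (0.50 ± 0.15, adjusted p = 0.0155) than WT IL-2. Cxcr3 showed no difference past the threshold between either mutein and WT IL-2 there, with 95% intervals of -0.29 to 0.22 for H16R and -0.48 to 0.03 for 3x.

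The single mutant H16R and the triple mutant 3x differed in the fewest receptors. Cxcr5 was lower after 3x than after H16R in isotype Tregs (-0.62 ± 0.09, adjusted p = 1.99e-04) and under block (-0.43 ± 0.09, adjusted p = 0.00185). Under block, 3x also gave more Ccr4 (0.50 ± 0.10, adjusted p = 6.59e-04) and less Ccr7 (-0.54 ± 0.13, adjusted p = 0.0036), Cxcr4 (-0.64 ± 0.12, adjusted p = 3.82e-04) and Cxcr3 (-0.38 ± 0.12, adjusted p = 0.0337, edgeR), the last lost without MHC II block H16R replicate 4 or MHC II block 3x replicate 2 (-0.33 to -0.30, adjusted p = 0.101 to 0.102). Ccr2 showed no difference past the threshold between the 2 muteins, with 95% intervals of the log2 difference of -0.42 to 0.10 in isotype Tregs and -0.03 to 0.48 under block. For Ccr6 the intervals were -0.54 to 0.07 and -0.56 to 0.05. Under block both were called without MHC II block 3x replicate 2 (adjusted p = 0.0874 for Ccr2 and 0.0359 for Ccr6, edgeR). In isotype Tregs, Ccr7 was higher (0.39 ± 0.13, adjusted p = 0.0539) and Ccr8 lower (-0.37 ± 0.11, adjusted p = 0.0355) after 3x than after H16R. The Ccr7 call was lost without isotype H16R replicate 2, isotype H16R replicate 3, isotype 3x replicate 1 or isotype 3x replicate 4 (0.32 to 0.41, adjusted p = 0.105 to 0.199) and the Ccr8 call without isotype H16R replicate 1, isotype H16R replicate 2, isotype 3x replicate 1 or isotype 3x replicate 4 (-0.36 to -0.33, adjusted p = 0.109 to 0.135). The count of 3 fell to 1 without isotype H16R replicate 2, isotype 3x replicate 1 or isotype 3x replicate 4.

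MHC II block by itself lowered 4 receptors in Tregs of PBS mice and raised none, with 14.1% of all genes called. They were Ccr7 (-0.64 ± 0.13, adjusted p = 0.00143), Ccr8 (-0.58 ± 0.12, adjusted p = 0.00152), Cxcr5 (-0.31 ± 0.09, adjusted p = 0.0352) and Cxcr4 (-0.35 ± 0.11, adjusted p = 0.0503). The Cxcr4 call was lost without isotype PBS replicate 3, isotype PBS replicate 4, MHC II block PBS replicate 1 or MHC II block PBS replicate 2 (-0.35 to -0.29, adjusted p = 0.109 to 0.164). Ccr2, Ccr4, Ccr6, Ccr9 and Cxcr3 did not pass the test in PBS mice, with log2 changes from -0.20 (Ccr6) to 0.23 (Ccr4). Under WT IL-2 the block changed 8 of 9 (2 rose, 6 fell, 33.6% of all genes), under H16R 5 (3 rose, 2 fell, 30.7%) and under 3x 5 (3 rose, 2 fell, 54.1%). Ccr7 and Cxcr4 fell with block under each of the 4 injections. Under 3x, Ccr7 went from the isotype range of 297 to 371 CPM to 93.3 to 142 CPM (-1.56 ± 0.13, adjusted p = 3.17e-10). Ccr2 rose with block under H16R (0.87 ± 0.13, adjusted p = 2.30e-05) and 3x (1.26 ± 0.13, adjusted p = 1.02e-08), and Cxcr3 too (0.66 ± 0.13, adjusted p = 6.16e-04 and 0.48 ± 0.13, adjusted p = 0.0028). Under WT IL-2, Ccr8 fell (-1.20 ± 0.11, adjusted p = 1.58e-08) and Ccr9 rose (1.04 ± 0.15, adjusted p = 1.30e-05), Ccr4 fell (-0.61 ± 0.10, adjusted p = 4.46e-05) whereas it rose under 3x (0.66 ± 0.10, adjusted p = 4.19e-06), and Cxcr3 fell (-0.35 ± 0.13, adjusted p = 0.0398), a call lost without isotype WT IL-2 replicate 2 or MHC II block WT IL-2 replicate 1 (-0.30 to -0.26, adjusted p = 0.118 to 0.141). The Ccr9 call under H16R (0.41 ± 0.15, adjusted p = 0.0548) was lost without isotype H16R replicate 4, MHC II block H16R replicate 1 or MHC II block H16R replicate 4 (0.33 to 0.38, adjusted p = 0.116 to 0.174). B cell markers moved with block as well, with 7 of 9 lower in PBS Tregs and 9 of 9 higher in WT IL-2 Tregs, and their part in the values of Ccr7, Cxcr5 and Ccr6 was not tested. Of 9 myeloid markers 9 were higher with block under WT IL-2, 7 under H16R and 4 under 3x, and of 6 NK markers 6, 5 and 4. Under WT IL-2, 4 of 4 Treg markers and 4 of 4 T cell markers tested were lower with block. The part of these shifts in the values of Ccr2, Cxcr3, Ccr4 and Ccr8 was not tested either.

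**Figure D3:**
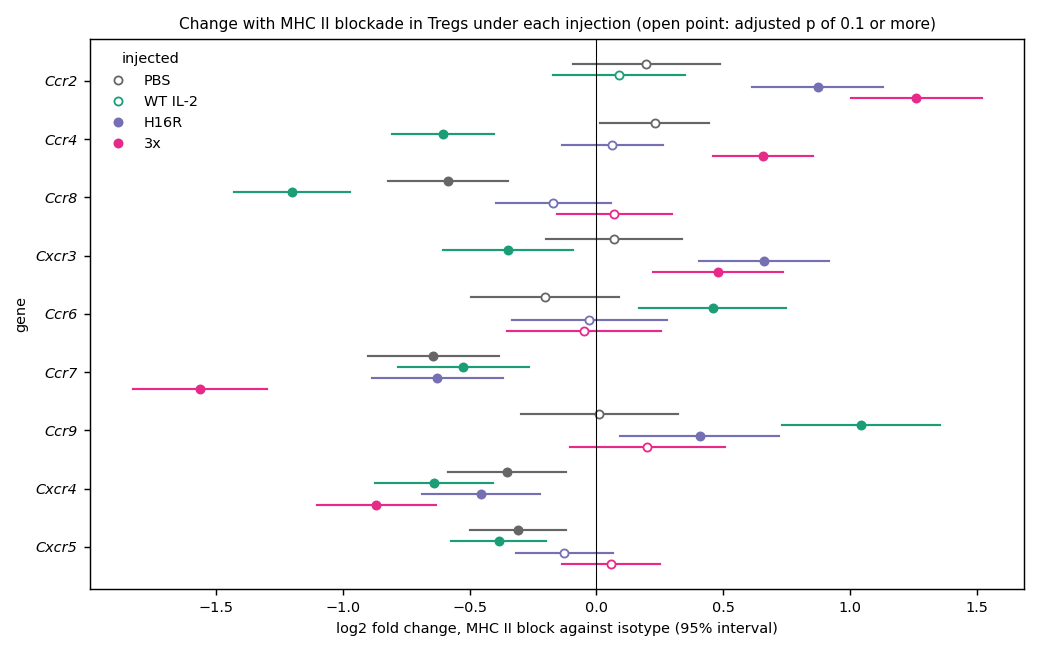
Log2 fold change of each receptor with MHC II block against isotype antibody (horizontal axis, with 95% interval) under each injection (colours), from edgeR in Tregs. Ccr7 and Cxcr4 lie left of 0 under all 4 injections, Ccr2 moves right from WT IL-2 to H16R and 3x, and Ccr8 lies furthest left under WT IL-2.

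Whether the block altered the response to each molecule was tested as an interaction, the change against PBS under block minus that under isotype. With WT IL-2, 4 of 9 receptors passed (19.7% of all genes). The rises of Ccr4 (-0.83 ± 0.14, adjusted p = 3.05e-04) and Ccr8 (-0.62 ± 0.16, adjusted p = 0.00855) were smaller under block, and the changes of Ccr6 (0.66 ± 0.20, adjusted p = 0.0246) and Ccr9 (1.03 ± 0.21, adjusted p = 0.00143), which fell in isotype Tregs, were less negative. With H16R 3 passed (19.1%), in which Ccr2 (0.68 ± 0.19, adjusted p = 0.0209), Cxcr3 (0.59 ± 0.18, adjusted p = 0.0339) and Ccr8 (0.42 ± 0.16, adjusted p = 0.0877) rose more under block. The Ccr8 interaction was lost in 10 of the 32 fits that each leave out 1 library (0.35 to 0.42, adjusted p up to 0.187) and under 3 of the 13 other settings. All values are log2 differences from edgeR.

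With 3x, 7 of 9 interactions passed (39.0% of all genes). Ccr2 (1.06 ± 0.19, adjusted p = 1.62e-04), Ccr8 (0.65 ± 0.16, adjusted p = 0.00316), Ccr4 (0.43 ± 0.14, adjusted p = 0.024) and Cxcr3 (0.41 ± 0.18, adjusted p = 0.087) rose more under block, Ccr7 (-0.92 ± 0.18, adjusted p = 4.11e-04) and Cxcr4 (-0.52 ± 0.16, adjusted p = 0.0168) fell more, and Cxcr5 (0.37 ± 0.13, adjusted p = 0.0366) fell less. The Cxcr3 interaction was lost in 10 of the 32 fits that each leave out 1 library (0.31 to 0.43, adjusted p up to 0.221) and under 3 of the 13 other settings, and was 0.37 (adjusted p = 0.143) without the 2 libraries highest in B cell markers. The Cxcr5 interaction was lost without MHC II block 3x replicate 4 (0.23, adjusted p = 0.156). For Ccr4 the sign of the interaction was thus negative after WT IL-2 and positive after 3x. Markers of several cell types had interactions too. For WT IL-2, H16R and 3x in that order, 9, 9 and 9 of 9 B cell markers passed, as did 9, 7 and 8 of 9 myeloid and 6, 6 and 5 of 6 NK markers, all positive. With WT IL-2, 4 of 4 T cell markers (median -0.48) and 2 of 4 Treg markers (median -0.40) had negative interactions, as Ccr4 and Ccr8 did. Their part in the interactions of the receptors was not tested.

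Tregs and Tcons came from the same 16 mice, and the fit held a term for each mouse. Over all mice, 8 of 9 receptors differed (6 higher in Tregs, 2 lower), with 75.9% of 12844 genes called. Ccr8 differed most, at 30.9 to 108 CPM in the 32 Treg libraries and 3.82 to 19.2 CPM in the 16 Tcon libraries (log2 fold change 3.13 ± 0.10 (SE), adjusted p = 1.25e-14). Its highest Tcon value was in isotype WT IL-2 replicate 2, the library with the raised Treg markers, and the other 15 lay at 3.82 to 9.43 CPM. Ccr6 (2.13 ± 0.14, adjusted p = 1.49e-10), Ccr4 (1.79 ± 0.18, adjusted p = 5.94e-08) and Cxcr4 (0.82 ± 0.06, adjusted p = 4.46e-10) were higher in the Treg library of all 16 mice, and Cxcr5 (0.69 ± 0.13, adjusted p = 8.47e-05) in 15. Ccr2 (0.43 ± 0.17, adjusted p = 0.0295) was higher in the Tregs of 11. Ccr9 (-1.33 ± 0.15, adjusted p = 2.17e-07) and Ccr7 (-0.79 ± 0.11, adjusted p = 2.15e-06) were lower in the Tregs of all 16. Cxcr3 did not pass the test (0.05 ± 0.09, adjusted p = 0.666, 95% interval -0.15 to 0.24) and was higher in Tregs in 7 of 16 mice. Marker sums of other cells had higher medians in the Tcon flow-through, with overlapping ranges. The B cell sum was 169 to 1291 (median 292) CPM in the 16 Tcon libraries and 35.2 to 874 (median 86.8) in the 32 Treg libraries. The myeloid sum was 104.2 to 1059 (median 227) against 25.5 to 861 (median 59.1), and the NK sum 60.2 to 404 (median 168) against 16.0 to 217 (median 37.0). Their part in the Treg to Tcon differences was not tested.

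In the PBS mice, with both antibody arms together, 6 of 9 receptors differed (50.4% of all genes). The fit held the paired libraries of all injections and gave each injection its own Treg to Tcon difference. Ccr8 (2.82 ± 0.19, adjusted p = 8.20e-09), Ccr6 (2.53 ± 0.26, adjusted p = 7.68e-07), Cxcr4 (0.89 ± 0.10, adjusted p = 2.28e-06) and Ccr4 (0.87 ± 0.22, adjusted p = 0.00441) were higher in Tregs, and Ccr9 (-0.68 ± 0.24, adjusted p = 0.0309) and Ccr7 (-0.48 ± 0.15, adjusted p = 0.0143) were lower. The Ccr9 call was lost without the mouse isotype PBS replicate 1 or isotype PBS replicate 2 (-0.59 to -0.50, adjusted p = 0.117 to 0.163). The arms were not equally far apart. For Ccr9 the Treg to Tcon ratio of CPM was 0.432 and 0.52 in the isotype PBS mice and 0.79 and 0.802 under block. For Ccr6 it was 3.41 and 4.5 against 7.59 and 9.76. Ccr2 (-0.18 ± 0.21, adjusted p = 0.515), Cxcr5 (0.14 ± 0.14, adjusted p = 0.46) and Cxcr3 (-0.31, adjusted p = 0.139) did not pass. The Cxcr3 difference was called without the mouse isotype 3x replicate 2 or MHC II block 3x replicate 1.

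**Figure D4:**
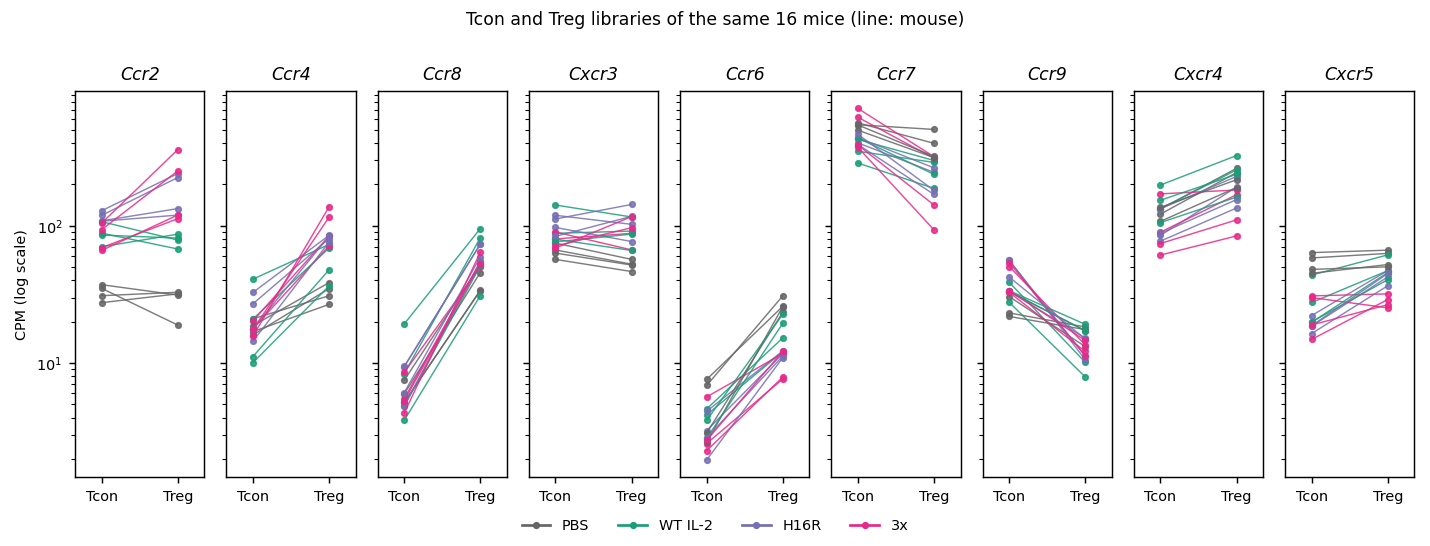
CPM (vertical axis, log scale) of each receptor in the Tcon and Treg library of the same mouse, joined by a line, for 16 mice coloured by injection. All 16 lines rise for Ccr8, Ccr6, Ccr4 and Cxcr4, and all 16 fall for Ccr7 and Ccr9.

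The Treg to Tcon difference changed with the injection for some receptors. Against PBS mice, 1 of 9 differences changed after WT IL-2, 4 after H16R and 6 after 3x, where 12.2%, 40.6% and 46.5% of all genes were called. Ccr2 and Ccr4 gained on Tcons after H16R (0.86 ± 0.28, adjusted p = 0.0312 and 1.13 ± 0.31, adjusted p = 0.0123) and after 3x (1.47 ± 0.28, adjusted p = 0.00105 and 1.70 ± 0.31, adjusted p = 6.38e-04), that is, Ccr2 rose more in Tregs than in Tcons, and Ccr4, which rose in Tregs, was not called in Tcons (0.24 ± 0.27, adjusted p = 0.541 after H16R and -0.04 ± 0.27, adjusted p = 0.943 after 3x). The Ccr2 call after H16R was lost without the mouse isotype PBS replicate 1 (0.62, adjusted p = 0.112). Cxcr5 gained after WT IL-2 (0.79 ± 0.20, adjusted p = 0.0389) and H16R (1.15 ± 0.20, adjusted p = 9.80e-04), as it fell further in Tcons than in Tregs. The WT IL-2 call was lost without the mouse isotype WT IL-2 replicate 1 or MHC II block WT IL-2 replicate 2 (0.74 to 0.82, adjusted p = 0.1 to 0.105), and without isotype WT IL-2 replicate 2 the count for WT IL-2 was 2. The receptor gained there was Ccr4, whose difference after WT IL-2 was 0.80 in the main edgeR fit, not called (adjusted p = 0.126). DESeq2 with its own size factors also called it (adjusted p = 0.0592). Ccr9 lost ground after H16R (-1.05 ± 0.34, adjusted p = 0.0274) and 3x (-0.93 ± 0.33, adjusted p = 0.0384), and Ccr7 (-0.82 ± 0.21, adjusted p = 0.00615) and Ccr6 (-0.81 ± 0.36, adjusted p = 0.0867) after 3x, while Cxcr3 gained (0.63 ± 0.23, adjusted p = 0.0384). The Ccr6 call was lost in 7 of the 16 fits that each leave out 1 mouse (-0.88 to -0.57, adjusted p up to 0.236). With 3x, the Ccr9 call was lost without the mouse isotype 3x replicate 1 or MHC II block PBS replicate 2 (-0.80 to -0.74, adjusted p = 0.103 to 0.108) and the Cxcr3 call without the mouse MHC II block 3x replicate 1 or MHC II block 3x replicate 2 (0.43 to 0.54, adjusted p = 0.104 to 0.139). The Treg to Tcon ratio of Cxcr3 CPM after 3x was 1.1 and 0.741 in isotype mice and 1.7 and 1.36 under block. After PBS it was 0.818 and 0.816 in isotype mice and 0.761 and 0.788 under block.

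Within the 16 Tcon libraries, with both antibody arms in 1 fit, 5 of 9 receptors changed after WT IL-2, 5 after H16R and 3 after 3x, and 27.2%, 31.1% and 9.91% of 12526 genes were called. Ccr2 rose with all 3 molecules. It measured 35.0 and 37.2 CPM in isotype PBS Tcons, 70.3 and 88.3 after WT IL-2, 109 and 108 after H16R and 66.1 and 69.3 after 3x, and 30.9 and 27.5, 107 and 85.5, 119 and 129 and 105 and 93.7 in that order under block. No IL-2 library overlapped a PBS library. The log2 fold change was 1.42 ± 0.13 (adjusted p = 1.27e-04) after WT IL-2, 1.81 ± 0.13 (adjusted p = 7.02e-06) after H16R and 1.32 ± 0.13 (adjusted p = 2.74e-04) after 3x (edgeR). The myeloid marker sum of Tcons was 880.1 to 1059 CPM after WT IL-2, 371 to 404 after H16R, 364 to 378 after 3x and 104.2 to 114 after PBS under block. In isotype Tcons it was 173 to 316 after WT IL-2, 176 to 186 after H16R, 114 to 142 after 3x and 217 to 236 after PBS. Its part in the Ccr2 values was not tested.

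Cxcr5 fell in Tcons with each molecule. It measured 63.7 and 58.3 CPM in isotype PBS Tcons, 27.6 and 43.7 after WT IL-2, 22.2 and 18.6 after H16R and 30.0 and 30.8 after 3x, and 48.1 and 45.0, 19.8 and 20.0, 18.7 and 16.4 and 14.8 and 18.9 under block. PBS libraries were the highest in both arms. The log2 fold changes were -0.99 ± 0.16 (adjusted p = 0.00266), -1.50 ± 0.17 (adjusted p = 2.05e-04) and -1.24 ± 0.16 (adjusted p = 0.00153) for WT IL-2, H16R and 3x (edgeR). The B cell marker sum was 1129 to 1291 CPM in isotype PBS Tcons and 185 to 195 in MHC II block PBS Tcons, against 169 to 558 in the Tcons given IL-2. Cxcr5 was higher in the isotype PBS libraries than in the MHC II block PBS libraries, and the part of B cells in its values was not tested.

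Ccr9 rose in Tcons after H16R (0.77 ± 0.14, adjusted p = 0.0024) and 3x (0.64 ± 0.14, adjusted p = 0.0195) and Cxcr3 after H16R (0.63 ± 0.17, adjusted p = 0.0207). WT IL-2 also gave calls for Ccr9 (0.34 ± 0.14, adjusted p = 0.0933), Cxcr3 (0.55 ± 0.17, adjusted p = 0.0439) and Ccr7 (-0.51 ± 0.18, adjusted p = 0.0626), of which Ccr9 was lost in 13 of the 16 fits that each leave out 1 library (0.26 to 0.35, adjusted p up to 0.26). Ccr7 was lost without isotype WT IL-2 replicate 1, MHC II block PBS replicate 1, MHC II block PBS replicate 2 or MHC II block WT IL-2 replicate 1 (-0.53 to -0.44, adjusted p = 0.119 to 0.155) and Cxcr3 without isotype PBS replicate 1 or isotype PBS replicate 2 (0.42 to 0.47, adjusted p = 0.104 to 0.123). Without isotype WT IL-2 replicate 2, the library with raised Treg markers, the Cxcr3 change was 0.34 and still called. The count of 5 for WT IL-2 fell to 3 without any 1 of 6 libraries (either isotype PBS or MHC II block PBS library, or replicate 1 of either WT IL-2 group). Ccr6 fell after H16R (-0.62 ± 0.24, adjusted p = 0.0863), lost in 8 of the 16 fits that each leave out 1 library (-0.68 to -0.51, adjusted p up to 0.234). Over the 4 injections, MHC II block changed 6 of 9 receptors in Tcons, all lower, with 28.9% of all genes called. They were Ccr8 (-0.86 ± 0.20, adjusted p = 0.019), Ccr6 (-0.80 ± 0.17, adjusted p = 0.014), Ccr4 (-0.70 ± 0.19, adjusted p = 0.0321), Cxcr5 (-0.59 ± 0.12, adjusted p = 0.0101), Ccr9 (-0.44 ± 0.10, adjusted p = 0.0137) and Cxcr4 (-0.45 ± 0.17, adjusted p = 0.0792, edgeR). The Cxcr4 call was lost in 8 of the 16 fits that each leave out 1 library (-0.47 to -0.31, adjusted p up to 0.168). These are averages over the injections, and the arms were not equally far apart in each. Ccr4 measured 20.9 and 40.8 CPM with isotype and 10.0 and 11.1 under block after WT IL-2, but after PBS 16.9 and 21.0 with isotype against 18.7 and 16.0 under block, and after 3x 20.3 and 17.8 against 15.7 and 17.5. Ccr9 measured 38.7 and 27.7 with isotype and 33.2 and 33.6 under block after WT IL-2. Without isotype WT IL-2 replicate 2, the library with raised Treg markers, the Ccr4 change was -0.53 and still called. The Treg marker sum was lower in MHC II block Tcons given WT IL-2 (290.4 to 391 CPM) than in isotype Tcons given WT IL-2 (525 to 1357), whereas in PBS mice it was 495 to 521 under block and 399 to 459 with isotype. Ccr6 in PBS Tcons measured 7.59 and 6.85 CPM with isotype and 3.09 and 2.63 under block, beside the lower B cell marker sum of block given above. The part of Treg and B cell shifts in the values of Ccr8, Ccr6, Ccr4 and Cxcr5 was not tested.

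Across the 32 Treg libraries the receptors fell into sets that rose and fell together, given here as a description since the libraries share groups. Log2 CPM of Ccr2 followed Ccr4 (Pearson r = 0.94) and Cxcr3 (r = 0.88), and Ccr7 followed Cxcr4 (r = 0.83). Cxcr5 followed Cxcr4 (r = 0.75) and Ccr6 (r = 0.71). Among 9506 other genes above 5 CPM, those closest to Ccr2 were Hsd11b1 (r = 0.99), Gzmb (r = 0.98) and Ostm1 (r = 0.98), those closest to Ccr4 were Spn (r = 0.98), Ubash3b (r = 0.98) and Gna15 (r = 0.98) and those closest to Cxcr3 were Lpcat4 (r = 0.96), Gimap7 (r = 0.95) and Pla2g16 (r = 0.95). Ccr8 was followed most by Gadd45b (r = 0.93), Adora2a (r = 0.93) and Hps6 (r = 0.92). Nearest to Ccr6 were Dscam (r = 0.97), Tdrkh (r = 0.96) and Dock6 (r = 0.96), and nearest to Ccr7 were Vps37b (r = 0.97), Smad7 (r = 0.96) and Sik1 (r = 0.95). Cxcr4 was followed by Rgs16 (r = 0.95), Spry1 (r = 0.95) and Tgif1 (r = 0.94), Cxcr5 by Bcl6 (r = 0.89), Egr2 (r = 0.89) and Atp9a (r = 0.89) and Ccr9, more loosely, by Pde3b (r = 0.84), Ugcg (r = 0.84) and Mctp2 (r = 0.82). Gzmb encodes granzyme B, a cytotoxic protease, Rgs16 a regulator of G protein signalling, and Bcl6 the transcription factor of follicular T cells.

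Lists of related genes are given by their counts and medians after 3x against PBS, beside the median of all genes (log2 change -0.008 in isotype Tregs and -0.037 under block). Of all genes, 63.6% and 73.0% were called in these comparisons. All log2 values are ± SE from the same edgeR fit. Of 16 other chemokine receptors, 11 were tested. In isotype Tregs 4 rose and 3 fell (median -0.33), and under block 8 rose and 2 fell (median 1.80). Ccr3, the eotaxin receptor, rose by 2.26 ± 0.32 in isotype Tregs and 3.82 ± 0.33 under block. Cxcr6, which binds CXCL16, measured -0.33 ± 0.19 in isotype Tregs, not called, and rose by 1.80 ± 0.19 under block. Ccrl2, an atypical receptor, rose in isotype Tregs (0.49 ± 0.09) and fell under block (-0.23 ± 0.09). The myeloid and NK marker sums given for the block groups stand beside these values too, and their part was not tested.

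Of 16 chemokines that bind 1 of the 9 receptors, 5 were expressed enough to test. In isotype Tregs 4 of the 5 fell after 3x and none rose, and under block 1 rose and 2 fell (medians -0.79 and -0.65). Cxcl10, a CXCR3 ligand, fell by 0.79 ± 0.12 in isotype Tregs and 1.16 ± 0.12 under block, whereas it rose after WT IL-2 in isotype Tregs (0.27 ± 0.11). Ccl1, the CCR8 ligand, rose after WT IL-2 in isotype Tregs (2.47 ± 0.35), measured 0.16 ± 0.37 after 3x there, not called, and rose after 3x under block (2.62 ± 0.34). This is the same order of molecules as for Ccr8 itself in isotype Tregs, where H16R gave 1.91 ± 0.35 for Ccl1. The low-abundance ligands Ccl25 of CCR9 (-0.33 ± 0.16), Ccl22 of CCR4 (-2.57 ± 0.52) and Cxcl9 of CXCR3 (-2.86 ± 0.79) fell after 3x in isotype Tregs. In the same comparison 8 of 8 dendritic cell markers and 8 of 9 myeloid markers fell, with median log2 changes of -2.03 and -2.96, and their part in the ligand values was not tested.

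Of 20 other chemokines, 11 were tested. With 3x, 6 fell and none rose in isotype Tregs, and 4 rose and 3 fell under block (medians -0.83 and 0.20). Ccl3, an inflammatory chemokine, measured -0.06 ± 0.29 in isotype Tregs, not called, and rose by 3.48 ± 0.27 under block. Ccl4 (1.80 ± 0.24) and Ccl5 (0.69 ± 0.20) rose under block too. In the same comparison 4 of 6 NK markers rose and 2 fell, 2 of 2 CD8 T cell markers and 3 of 9 myeloid markers rose, and their part in these values was not tested. Cxcl2, a neutrophil attractant, was not called in either arm (-0.26 ± 0.16 and -0.24 ± 0.16).

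All 25 listed genes of receptor signalling were tested, and 19 rose and 3 fell after 3x in isotype Tregs, against 21 and 3 under block (medians 0.38 and 0.45). Called in either direction were 88% and 96% of the list and 63.6% and 73.0% of all genes. Of all 12392 genes, 3880 rose and 4007 fell in isotype Tregs, and 4295 and 4746 under block. The list was chosen with earlier results of these data known, so these shares are a description and not a test. Coro1a, an actin regulator, rose by 0.49 ± 0.07 and 0.55 ± 0.07, and Rac2, a small GTPase, by 0.31 ± 0.05 and 0.35 ± 0.05. Tln1, which links integrins to actin, rose by 0.38 ± 0.03 and 0.23 ± 0.03, and Dock2, which activates Rac, by 0.42 ± 0.05 and 0.25 ± 0.05. In the same comparisons 4 of 4 T cell and 4 of 4 Treg markers rose in both arms. In isotype Tregs 9 of 9 B cell and 8 of 8 dendritic cell markers fell, and of 9 myeloid markers 8 fell and 1 rose. The part of these shifts in the values of the list was not tested. Of 16 desensitisation genes, 14 were tested, with 7 higher and 5 lower in isotype Tregs and 5 higher and 7 lower under block (medians 0.08 and -0.22). The receptor kinases Grk2 (0.28 ± 0.04 and 0.28 ± 0.04) and Grk6 (0.29 ± 0.05 and 0.20 ± 0.05) rose in both arms. Rgs2, a regulator of G protein signalling, fell in both (-0.25 ± 0.08 and -0.49 ± 0.08). Rgs1, of the same family, fell under block (-0.20 ± 0.09) and measured -0.15 ± 0.09 in isotype Tregs, not called. Both Rgs1 (-0.61 ± 0.09) and Rgs2 (-0.65 ± 0.08) fell with MHC II block in PBS Tregs, as did Cxcr4 and Ccr7.

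Of 13 other chemoattractant receptors, all tested, 6 rose and 1 fell after 3x in isotype Tregs, 5 and 3 when libraries were scaled by total counts alone, and 9 rose and 1 fell under block (medians 0.11 and 0.66). S1pr1, whose product lets T cells leave lymphoid tissue, rose by 0.96 ± 0.07 in isotype Tregs and 0.78 ± 0.07 under block, opposite in sign to Ccr7. S1pr4, another sphingosine 1-phosphate receptor, rose by 1.11 ± 0.09 and 1.11 ± 0.08. P2ry10 was not called (0.04 ± 0.12 and -0.06 ± 0.12), and Gpr174, a lysophosphatidylserine receptor, fell under block (-0.24 ± 0.13).

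Of 21 transcription factors listed for roles at these receptors, 20 were tested, with 7 higher and 7 lower in isotype Tregs and 8 and 10 under block (medians -0.05 and -0.11). Klf2, which drives S1pr1 in resting T cells, fell by 0.25 ± 0.10 in isotype Tregs and 0.72 ± 0.10 under block, so that it and S1pr1 moved in opposite directions. Tcf7, a factor of naive and memory T cells, fell by 0.33 ± 0.09 and 0.97 ± 0.09. Foxo1, known to act on Ccr7, rose in isotype Tregs (0.25 ± 0.05) and measured -0.07 ± 0.05 under block, not called. Stat5b, a transducer of the IL-2 signal, rose by 0.09 ± 0.04 in isotype Tregs and fell under block (-0.14 ± 0.04).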

How the data were processed

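Bulk RNA-seq of splenic CD25-selected Tregs (32 libraries) and CD25-negative Tcons (16 libraries) was used. Per the methods, the authors aligned stranded mRNA reads with OSA in Omicsoft Array Suite to mouse B38 and quantified genes with an RSEM implementation, and the submitters' processing notes also name RSEM and DESeq2 1.30.1. The deposited matrices hold expected counts and, in a second file, FPKM values, which the authors scaled by transcript length and library size. Tables of the authors' own fold changes and p-values were not used. Gene models are called GENCODE v19 in the methods, and biotypes and coordinates here come from GENCODE vM21 (names matched for 96.6% of genes).

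Expected counts were rounded. Protein-coding genes over 0.5 CPM in at least 4 libraries were tested with edgeR 4.0.16 (quasi-likelihood F test, TMM scaling, R 4.3.3), 1 fit of 8 groups for Tregs, 1 additive fit of injection and antibody for Tcons, and 1 fit of 16 mice with the mouse as a block for Treg against Tcon. Another fit of these mice, also with the mouse as a block, held 1 Treg to Tcon difference for each injection, with both antibody arms together. p-values were Benjamini-Hochberg adjusted over all genes tested, with a threshold of 0.1. SEs were computed as the size of the log2 fold change over the square root of F. Tregs and Tcons with the same label number come from the same animal, and their deviations from the group means correlated (r 0.153 to 0.552). The 2 mice of a group share 1 value of r, since their deviations from the mean of 2 mirror each other. Across injections a number only names a mouse. Libraries are separate mice except that 1 label stands on 2 libraries of 1 group, and no pair of libraries agreed within sampling noise. Library totals of 18279780 expected counts or more put at least 67 counts behind every value of a receptor (the fewest for Ccr6 in Tcons), so counting error adds to the spread between mice at the lowest levels. The fits were tested on simulated data first. Of true changes of 0.5 on the log2 scale, 38.8% were recovered between 2 Treg groups and 9.84% as interactions. For true changes of 1 these shares were 95.4% and 76.5%. False calls made up 10.9% and 6.52% of the calls. Small changes, above all small interactions, may thus be present though not called.

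Marker and gene lists and the 9 receptors were chosen with earlier results of these data known. Named genes were the 9 receptors, the 4 most abundant tested genes of each list (5 ligands) and, for each receptor, the 3 genes closest in log2 CPM. All of these are given except 1 gene, which is not reported here. Alternatives were DESeq2 1.42.0, total-count scaling, other filters, all biotypes, FPKM with limma 3.58.1 (pseudocounts 0.1 and 1), thinning to the smallest library, only the groups compared, a replicate block, a threshold of 0.05 and leaving out each library.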

Additional observations from a re-analysis of the deposited data

Results flagged for a closer look

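Of 72 sets of 4 Treg libraries (9 receptors in 8 groups), 4 held a library far from the other 3, about what chance gives (1 in 20 sets). Ccr6 was 12.2 CPM in MHC II block 3x replicate 2 against 7.89 to 8.35 in the others, and 7.29 CPM in isotype H16R replicate 3 against 11.6 to 12.2. Ccr7 was 399 CPM in isotype PBS replicate 2 against 503 to 513. Ccr9 was 11.2 CPM in MHC II block H16R replicate 3 against 14.8 to 15.2.

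Responses to IL-2 that differed between the isotype and MHC II block arms, by the interaction term in edgeR, were on the log2 scale Ccr4 -0.83, Ccr6 0.66, Ccr8 -0.62, Ccr9 1.03 after WT IL-2, Ccr2 0.68, Ccr8 0.42, Cxcr3 0.59 after H16R and Ccr2 1.06, Ccr4 0.43, Ccr7 -0.92, Ccr8 0.65, Cxcr3 0.41, Cxcr4 -0.52, Cxcr5 0.37 after 3x. A positive value means a higher change against PBS under block.

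Responses that differed between Tregs and Tcons of the same mice, with both antibody arms together, were Cxcr5 0.79 after WT IL-2, Ccr2 0.86, Ccr4 1.13, Ccr9 -1.05, Cxcr5 1.15 after H16R and Ccr2 1.47, Ccr4 1.70, Ccr6 -0.81, Ccr7 -0.82, Ccr9 -0.93, Cxcr3 0.63 after 3x, positive where the change was higher in Tregs.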

How the results depend on the processing

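No receptor changed direction while called, in 6768 values with 1 library or mouse left out (130 calls lost, 40 gained) or in 2547 values under the other settings (43 lost, 30 gained). Most lost calls were of changes under 0.5 on the log2 scale. The rises of Ccr2, Ccr4 and Cxcr3 against PBS in Tregs were called in all 6 comparisons under every setting run, as were the falls of Ccr7. The number of receptors called moved by over 1.5 times in these cases. For the Treg to Tcon difference after WT IL-2 (1 called), DESeq2 with its own size factors called 2, and leaving out 1 mouse gave 0 to 2. For WT IL-2 against PBS in Tcons (5 called), a threshold of 0.05 left 3, and leaving out 1 library gave 3 to 5. Leaving out 1 library gave 3 to 6 for H16R against WT IL-2 (6 called) and 1 to 3 for 3x against H16R (3 called), both in isotype Tregs.

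The replicate number as a block, which in Tregs and Tcons links different mice (deviations of same-numbered libraries correlated by -0.48 to 0.66, median 0.02, and only 1 of 28 group pairs had all correlations over 0.1), moved 3 counts: 3x against PBS under block from 8 to 9, 3x against WT IL-2 in isotype Tregs from 6 to 7 and WT IL-2 against PBS in Tcons from 5 to 4. The other counts stayed as they were with this block, as did the Treg to Tcon counts without the block on the mouse.

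Without both libraries rich in B cell markers, the Cxcr3 change with block under WT IL-2 (-0.30 against -0.35 with them on the log2 scale, adjusted p = 0.113) and the Cxcr3 interaction after 3x (0.37 against 0.41, adjusted p = 0.143) were lost, and the Ccr9 fall after 3x under block (-0.26 in both, adjusted p = 0.0891) and the Ccr4 difference of 3x from WT IL-2 in isotype Tregs (0.18 in both, adjusted p = 0.0915) were gained (edgeR). Neither library lies in the groups compared for the gained calls. Per-library values of the authors' purity check were not used here, so the mix of cells is followed through marker genes alone.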
